A study of Mus musculus with 147 samples.

Results

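The cells described here are the YFP-positive kidney cells sorted from mice that lack the renin gene, called Renin-null cells. They are all 96 wells labelled as null renin cells, of 147 wells in the series, and they were taken whole, without regard to what they express. The mice were adult C57BL/6 animals of the genotype Ren1c-/- Ren1c-YFP, 12 mice in 4 captures, and the 51 WT renin cells set beside them here came from 4 adult Ren1c+/+ Ren1c-YFP mice in 1 capture. In both genotypes the YFP transgene stands under the upstream control region of Ren1c, so the sort selects cells in which that sequence is or recently was active, whether or not renin can be made. Kidney cortex was digested to single cells, dead cells were marked with DAPI, and sorted cells were held 1 to a well in the Fluidigm C1 System. Full-length cDNA was made with SMART-Seq v4, which has no molecular identifiers. The wells form 2 sequencing libraries, YFP1 and YFP2, of 48 wells each. The labels give no mouse and no capture for a well, so the Renin-null cells count as 1 sample, wells are not replicates, and no test was run. Ranges, medians and shares are given in place of one, and exact binomial 95% intervals cover counting error over wells only.

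Renin is the protease that starts the angiotensin cascade. In the adult kidney it is made by juxtaglomerular cells, which are modified smooth muscle cells of the afferent arteriole wall and which share a contractile programme with the muscle around them. Signalling through cAMP keeps the renin gene active in these cells, and when the body needs more renin, arteriolar muscle cells can turn the gene on again. *Akr1b7*, an aldo-keto reductase, marks cells of the renin programme even where no renin is made.

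The wells differed widely in depth. All 96 held from 3628 to 14505243 counts (median 4107950), and the mitochondrially encoded genes took from 0.832% to 81.5% of them (median 12.4%). Quality wells were those of at least 100000 counts, at least 1000 genes with a count and at most 25% mitochondrial counts. There were 57 of these (59.4%, 95% interval 48.9% to 69.3%), 28 in YFP1 and 29 in YFP2, and they held 89.03% of the counts of the 96 wells. Of the 39 others, 20 in YFP1 and 19 in YFP2, 36 exceeded the mitochondrial limit, 26 of them with no other fault, 13 fell short in counts and 2 in genes. Quality wells held 151022 to 14505243 counts (median 6709916) and 2779 to 11410 genes (median 6381). In quality wells the median was 6159772 counts and 6359 genes in YFP1 and 6808681 counts and 6422 genes in YFP2, with lower quartiles of 3539074 and 5526711 counts. Over all 48 wells of each the median was 2474269 counts in YFP1 and 4989997 in YFP2. By the same limits 15 of the 51 WT wells passed. The values below are from quality wells and are given as CPM, the count of a gene per 1000000 counts of its well. A gene was called found in a well with at least 10 counts there.

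A few wells were not independent. In 4 pairs the profiles correlated across genes at r = 0.974 to 0.987, whereas the other 1593 pairs of quality wells lay between 0.231 and 0.578, with a median of 0.413. Within these pairs only 5 to 19 genes had at least 100 counts in one well and none in the other, against at least 313 (median 1047) in the other pairs. In every one of the 4 pairs the sample numbers in the labels differ by 48. The pairs are samples 96 and 144, 97 and 145, and 98 and 146, each across YFP1 and YFP2, and 99 and 147, both labelled YFP2, of which 147 lies outside the limits. Outside the limits lay also 2 pairs within YFP1, samples 92 and 93 and samples 88 and 89, at r = 0.896 and 0.853, with 0 such genes each. Counting each pair of quality wells once leaves 54 wells, and the marker values this moved most are given both ways.

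The labels held at the renin locus. *Ren1* (GRCm38 chromosome 1, 133350510 to 133360325, plus strand), the deleted gene, was at 0 counts in 44 of the 57 wells, and its lowest, median and highest levels were 0, 0 and 9.95 CPM. It was found in 1 well (1.75%, 95% interval 0.0444% to 9.39%), with 17 of the 43 counts that all wells held together. In the 15 WT wells *Ren1* ran from 674 to 313965 CPM with a median of 47695, so the genotypes did not overlap. The reporter was less even. EYFP transcripts were found in 34 of the 57 wells (59.6%, 95% interval 45.8% to 72.4%), at 0 CPM in the lowest, 3.76 in the median (2.67 in YFP1, 11.1 in YFP2) and 34659 in the highest well. Only 19 wells passed 100 CPM and 8 passed 1000 CPM, although each cell had been sorted on YFP fluorescence.

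The 5 markers given for these cells were present in most wells. *Akr1b7* (chromosome 6, 34412334 to 34423142, plus strand) was found in 50 of 57 wells (87.7%, 95% interval 76.3% to 94.9%). Its lowest, median and highest levels were 0, 1425 and 9710 CPM. The 28 wells of YFP1 had a median of 1532 CPM and the 29 of YFP2 one of 1283, and with near-identical wells counted once the median of all fell to 1043. It reached 100 CPM in 42 wells and stayed below in 15. *Acta2* (chromosome 19, 34241090 to 34255590, minus strand), the smooth muscle actin, was found in 55 wells (96.5%), at 2.23 CPM in the lowest, 3407 in the median and 22599 in the highest. *Tagln* (chromosome 9, 45929619 to 45936058, minus strand), the actin-binding protein transgelin of contractile muscle, was found in 56 wells (98.2%), with 6.33, 5489 and 20465 CPM as its lowest, median and highest levels. Both muscle genes reached 100 CPM in 48 wells.

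The other markers encode secreted proteins. *Mgp* (chromosome 6, 136872435 to 136875823, minus strand), the matrix Gla protein that inhibits calcification of vessel walls, was found in 55 wells and ran from 2.57 through a median of 1919.7 to 37423 CPM. With near-identical wells counted once its median was 1595 CPM. *Fstl1* (chromosome 16, 37776873 to 37836514, plus strand), a follistatin-like glycoprotein, was found in 54 wells (94.7%), at 0, 1959.8 and 10205 CPM. Among the 15 WT wells the median was 103 CPM for *Mgp* and 349 for *Fstl1*, and 3238 for *Akr1b7*, 4638 for *Acta2* and 4690 for *Tagln*. Each of these ranges overlapped that of the Renin-null wells, the genotypes are 1 sample each in separate libraries, and their differences were not tested. All 5 markers were found together in 49 of the 57 Renin-null wells. They passed 100 CPM together in 34 of 57, and in 6 of the 15 WT wells, while 3 Renin-null wells had none of them at 100 CPM.

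**Figure D1:**
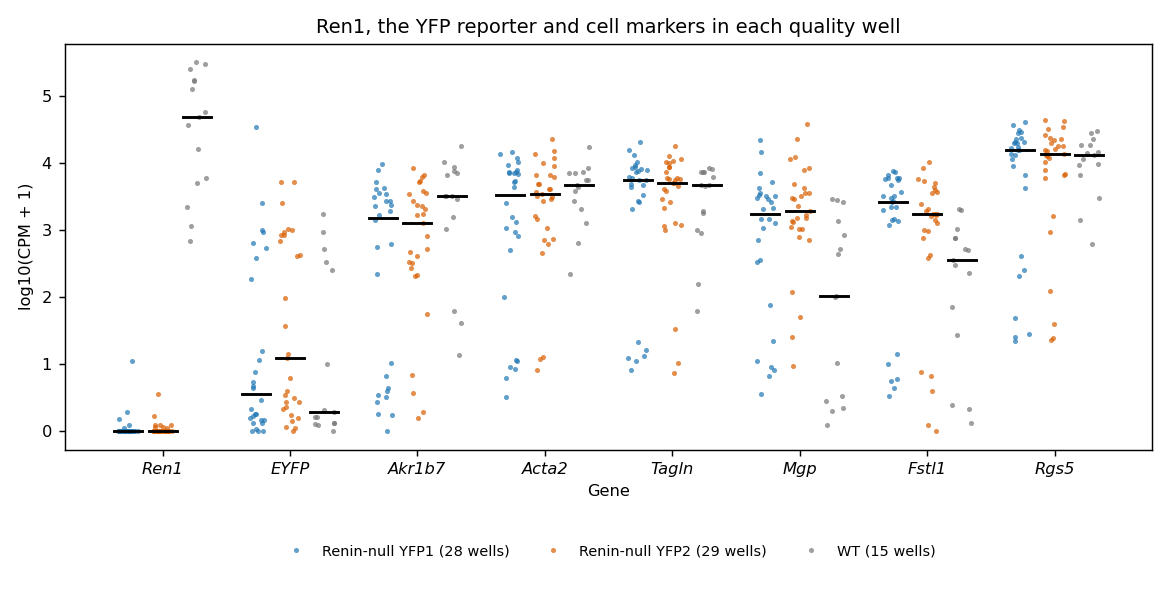
Level of 8 genes, as log10(CPM + 1), in each quality well of the Renin-null libraries YFP1 (blue, 28 wells) and YFP2 (orange, 29 wells) and of WT (grey, 15 wells), with points jittered sideways and a black line at each median. Ren1 sits at or near 0 in the Renin-null wells and between 674 and 313965 CPM in WT, and each muscle and matrix gene shows a main band with a smaller set of wells under 100 CPM.

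The genes with the most reads were those of vessel wall muscle and of the cytoskeleton. Ranked by the median share of reads over wells, 18 of the 20 leading nuclear genes were *Rgs5*, *Actb*, *Tagln*, *Ubb*, *Fos*, *Btg1*, *Hspa8*, *Acta2*, *Eef1a1*, *Myl6*, *Sdc4*, *Fth1*, *Ppp1r12a*, *Actg1*, *Crip1*, *Fstl1*, *Cald1* and *Mgp*. Together the 20 took 10.1% of the counts of the median well. *Rgs5* (chromosome 1, 169655501 to 169695813, plus strand), a brake on G protein signalling that marks pericytes and arteriolar muscle, took the most reads, with a lowest level of 20.8 CPM, a median of 15241 and a highest level of 44084, and it was found in all 57 wells. Only 7 wells fell below 100 CPM. *Actb*, the cytoplasmic beta actin, ran from 1135 through 12913 to 47230 CPM, and every well exceeded 1000 CPM.

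Reads on a full-length transcript grow with its length, so an order of genes by CPM is one of reads, and transcript levels of different genes are compared here as CPM per kilobase of transcript. On that scale *Actb* led with a median of 6726, followed by *Crip1* (4117), which encodes a small LIM-domain protein, and by *Myl6* (3938), a myosin light chain. *Rgs5* stood next at 3721, then *Tagln* at 3441 and *Mgp* at 3111. *Ubb*, a ubiquitin gene, stood at 2854, *Tmsb4x*, the actin-sequestering thymosin, at 2437, and *Fos*, a subunit of the AP-1 transcription factor, at 2007. *Acta2* stood at 1674 and *Akr1b7* stood at 1113. *Fstl1*, ranked among the 20 by reads, has a long transcript and stood at 517 per kilobase, and *Ppp1r12a*, the myosin phosphatase targeting subunit, at 649. *Mgp*, with a short transcript, thus exceeded *Fstl1* per kilobase while their CPM were nearly equal.

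**Figure D2:**
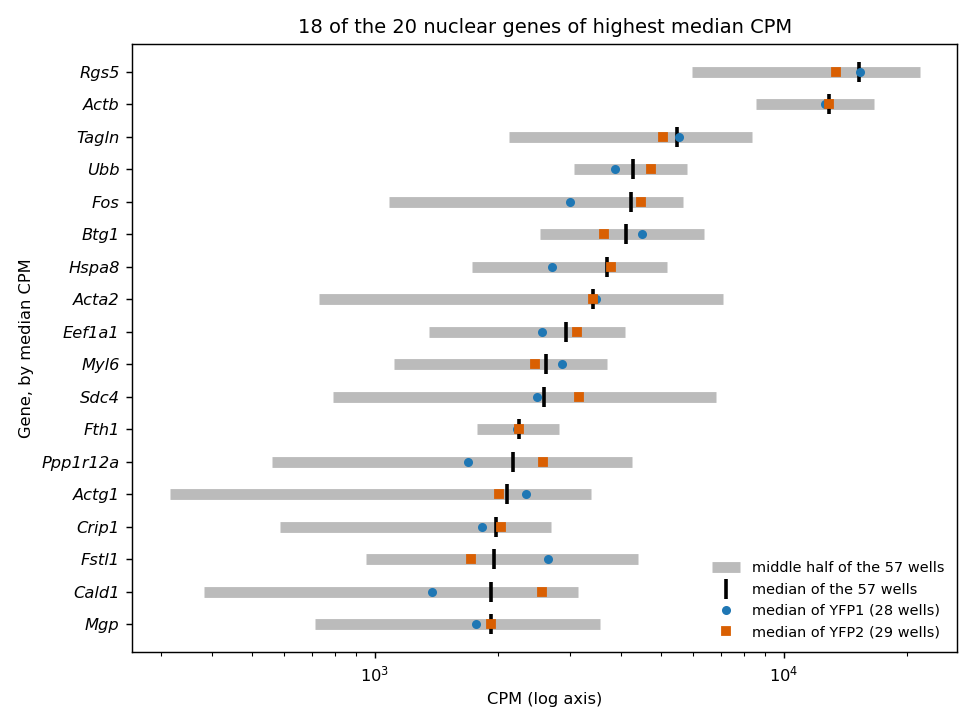
CPM (log axis) of 18 of the 20 nuclear genes of highest median over the 57 Renin-null quality wells, with grey bars from the lower to the upper quartile, a black tick at the median of all wells and symbols at the medians of YFP1 (blue circles) and YFP2 (orange squares). Rgs5 and Actb took the most reads, with medians of 15241 and 12913 CPM, and the library medians lie close together beside the spread between wells.

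Few genes were seen in nearly every cell. Of 20608 genes with a count in a quality well, 184 (0.893%) were found in at least 90% of the wells and 5310 (25.8%) in at least 20%. At the other end, 2596 genes were found in 1 well only and 8366 in 2 to 11 wells. The median well had 2884 genes found, and the median pair of wells shared 22.8% of the genes found in either. The 184 genes took 30.9% of the counts of the median well. Ribosomal protein genes made up 30 of them, out of 86 with a count.

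In every well 32 genes were found. Mitochondrially encoded genes or their nuclear copies account for 12, and 18 of the 20 others were *Actb*, *Actg1*, *Bhlhe41*, *Eef1a1*, *Fth1*, *Klf13*, *Lars2*, *Myh9*, *Myl6*, *Ppia*, *Ptma*, *Rgs5*, *Rpl14*, *Rps25*, *Rps29*, *Ubb*, *Ubb-ps* and *Zbtb20*. *Ubb-ps* is a processed copy of *Ubb*, so reads of the pair cannot be assigned with certainty, and *Lars2* carries sequence close to mitochondrial ribosomal RNA in mice. Most of the others serve every cell, and *Rgs5* does not. In the 6 wells of another profile described further on, *Rgs5* stood at only 20.8 to 47.9 CPM. Whether those cells made it was not tested. *Bhlhe41*, a circadian repressor of the basic helix-loop-helix family, ran from 405 through 1679 to 13180 CPM, with no well below 100 CPM. The transcription factor genes *Klf13* and *Zbtb20* reached 100 CPM in 46 and 36 wells.

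The gene lists below were chosen with earlier results of these data known, and they are described by counts beside the shares of all genes, 25.8% found in at least 20% of wells and 0.893% in at least 90%. Contractile genes were widely shared. Of 15 members, 14 were found in at least 20% of the wells and 8 in at least 90%, namely *Tagln*, *Acta2*, *Flna*, *Myl9*, *Cald1*, *Myh11*, *Mylk* and *Tpm1*. Their summed level ran from 40.0 to 85726 CPM with a median of 24448, and *Tagln* held 23.5% of it. *Myh11*, the smooth muscle myosin heavy chain, was found in 55 wells with a lowest level of 2.61, a median of 1158 and a highest of 8568 CPM. *Myl9*, the regulatory myosin light chain, was found in 55 wells at 1.79, 1674 and 10165 CPM. *Mylk*, the kinase that phosphorylates that light chain, was found in 53 wells with a median of 726 CPM. Other members of the list were patchier, with *Cnn1*, calponin, found in 34 wells (median 11.6 CPM), *Smtn*, smoothelin, in 35 (13.7 CPM) and *Des*, desmin, in 23 (0.636 CPM). *Actg2*, the enteric muscle actin, was found in 1 well.

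The mural list of 10 genes rested on *Rgs5*, which took 94.5% of its reads, as summed CPM. Of its members 7 were found in at least 20% of the wells and 1, *Rgs5*, in at least 90%. *Notch3*, the receptor of vascular muscle identity, was found in 35 wells at a median of 22.4 CPM, *Mcam* in 35 at 27.9 CPM, *Cspg4* (NG2) in 23 at 0.862 CPM and *Pdgfrb*, the PDGF receptor of pericytes, in 27 at 1.68 CPM. *Kcnj8* and *Higd1b*, markers of capillary pericytes, were found in 1 well each.

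Extracellular matrix and matricellular genes were led by a few widely found members. Of 26 members 19 were found in at least 20% of the wells and 6 in at least 90%, which were *Mgp*, *Fstl1*, *Sparc*, *Sparcl1*, *Bgn* and *Igfbp7*. At a limit of 100 CPM *Mgp* was in 82.5% of the wells and *Fstl1* in 80.7%. Their summed level ran from 44.5 through a median of 14444 to 66809 CPM, and 55 of 57 wells exceeded 1000 CPM, or 54 with *Spp1* left out of the sum. *Sparc*, which encodes a collagen-binding matricellular protein, was found in 54 wells at 0, 1178 and 13143 CPM. *Bgn*, the proteoglycan biglycan, was found in 53 wells at 0.791, 767 and 8102 CPM, and *Igfbp7*, an insulin-like growth factor binding protein, in 54 wells at a median of 369 CPM. In the 15 WT wells the medians were 249.2, 45.1 and 18.0 CPM for *Sparc*, *Bgn* and *Igfbp7*, from 1 sample of another library. The whole list summed there to a median of 9894 CPM (4367 to 15156), beside 14444 CPM here, and neither difference was tested. Genes of the basement membrane were found in fewer wells, *Col4a1* in 41, *Col4a2* in 42 (median 14.9 CPM), *Lamb2* in 43 (14.9 CPM) and *Nid1* in 28 (2.06 CPM). *Eln*, elastin, was found in 27.

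Osteopontin had another distribution. *Spp1* was found in 28 wells, at a lowest level of 0, a median of 2.06 and a highest of 40015 CPM, and only 6 wells reached 100 CPM. The highest well held 62.02% of its summed CPM. Of the 6 wells, 5 had under 1000 CPM of contractile genes and are described further on. Over the 57 wells *Spp1* correlated at 0.65 with the loop and distal tubule sum, 0.61 with the proximal tubule sum, 0.49 with the genes per well and -0.39 with the contractile sum. *Emilin1*, an elastic fibre glycoprotein, was likewise uneven, found in 27 wells with 57.1% of its CPM in 1 of them.

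Fibrillar collagen genes were found in many wells, while most other genes of the fibroblast list were found in few wells or none. *Col1a1* was found in 47 wells at a median of 63.1 CPM, *Col3a1* in 45 at 50.8 CPM and *Col1a2* in 37 at 34.4 CPM. By contrast *Pdgfra* was found in 7 wells, *Dcn* in 8, and *Lum*, *Dpt*, *Clec3b* and *Postn* in none. *Dpt* had no count in any well, and the highest levels of *Lum*, *Clec3b* and *Postn* were 0.254, 0.318 and 0.153 CPM. The fibroblast list of 12, which includes the collagens, had 4 members found in at least 20% of the wells, the collagens and *Pi16* (13 wells). Its sum had a median of 398 CPM (242 in YFP1, 807 in YFP2) and passed 1000 CPM in 18 wells, 5 in YFP1 and 13 in YFP2.

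Among genes of the renin programme, *Akr1b7* was the one widely found. It took 77.6% of the reads, as summed CPM, of a list of 12. Of the others 7 were found in at least 20% of the wells and none in 90%. The connexin genes *Gja4* and *Gjc1* were found in 17 and 15 wells and *Gja5*, which encodes connexin 40 of juxtaglomerular cells, in 9. *Adrb1*, the beta-1 adrenergic receptor that stimulates renin release, was found in 16 wells, and *Adcy5* and *Adcy6*, cAMP-forming cyclases that calcium inhibits, in 14 each. A list of the cAMP pathway, which shares *Adcy5* and *Adcy6* with this one, held more widely found genes. *Gnas*, the stimulatory G protein subunit, was found in 53 wells (median 193 CPM), *Crebbp*, the CREB-binding coactivator, in 47 (121 CPM), *Prkar1a*, a regulatory subunit of protein kinase A, in 45 (205 CPM), and *Pde3a* and *Pde4b*, which break cAMP down, in 45 (45.5 CPM) and 44 (228 CPM). Of the 20 genes of that list 13 were found in at least 20% of the wells and 1 in at least 90%.

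Immediate early genes were abundant in nearly every well. All 20 members were found in at least 20% of the wells and 7 in at least 90% (*Fos*, *Btg2*, *Egr1*, *Atf3*, *Fosb*, *Jun* and *Zfp36*), and the summed level ran from 33.6 through a median of 15916 to 48396 CPM. *Fos* was found in 56 wells at 4.93, 4231 and 19449 CPM. *Btg2*, an antiproliferative gene, was found in 56 wells at a median of 1852 CPM, *Egr1* in 53 at 1389 CPM and *Atf3* in 52 at 469 CPM. The 15 WT wells had a median sum of 17926 CPM. These genes are known to respond to tissue digestion, to which every cell here was exposed, so level in the tissue and response to handling cannot be told apart. Of the unfolded protein response list, 10 of 13 genes were found in at least 20% of wells and none in 90%, and the median sum was 2053 CPM. *Hspa5*, the BiP chaperone of the endoplasmic reticulum, was found in 48 wells (median 428 CPM), *Hsp90b1* in 47 (111 CPM) and *Ddit3*, which encodes the stress factor CHOP, in 22 (0.448 CPM). Cell cycle genes were close to 0, with 1 of 12 in 20% of the wells and a median sum of 3.14 CPM, although the highest well reached 7527 CPM. *Mki67* and *Cdk1* were found in 3 wells each and *Ccnb1* in 7. All 10 housekeeping genes were found in at least 20% of the wells and 7 in at least 90%.

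**Figure D3:**
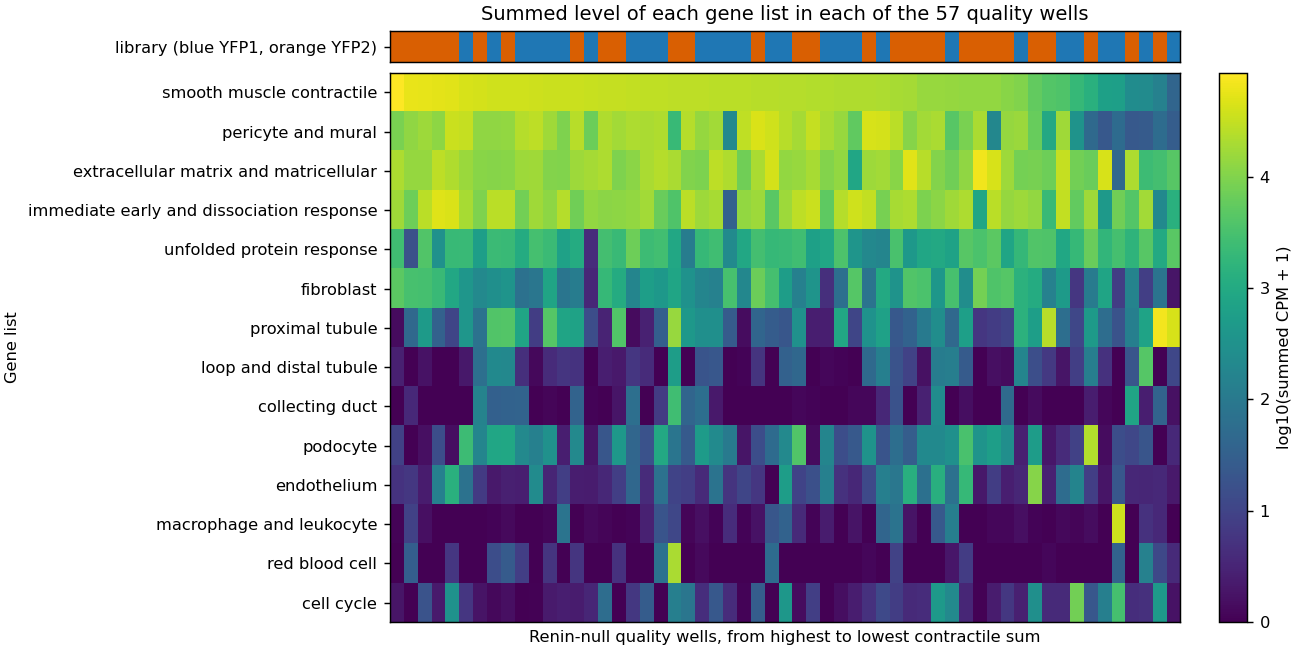
Summed level of 14 gene lists, as log10(summed CPM + 1), in each of the 57 Renin-null quality wells, ordered from the highest to the lowest contractile sum, with the library of each well above (blue YFP1, orange YFP2). Contractile, mural, matrix and immediate early sums are high across most wells, the 6 wells at the right edge hold under 1000 CPM of contractile genes, and lists of other kidney cell types light up in single wells.

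Some sorted wells carried another profile. In 6 of the 57 wells, 4 in YFP1 and 2 in YFP2, the contractile list summed to under 1000 CPM, and in each of these *Rgs5* was between 20.8 and 47.9 CPM and *Akr1b7* between 0.916 and 3.42 CPM. Of the 6, 4 held 7638239 to 10363577 counts and the others 292105 and 365262, and the part of depth was not tested. Of these wells 2 held 42873 and 69950 CPM of proximal tubule genes, 1 held 35850 CPM of the macrophage and leukocyte list, 27959 CPM of it from the antigen-presentation gene *H2-Aa*, and 1 held 4234 CPM of loop and distal tubule genes. The remaining 2 had none of these lists above 1000 CPM, and *Spp1* took 40015 and 18532 CPM of their matrix sums of 43003 and 20780 CPM. Without *Spp1* the matrix sums of the 6 wells were 44.5 to 2988 CPM. EYFP was at most 10.3 CPM in the 6. Just above the limit, a YFP2 well with 1330 CPM of contractile genes had 23.8 CPM of *Rgs5*, 0.585 CPM of *Akr1b7* and 23086 CPM of podocyte genes. In 48 wells, by contrast, *Rgs5*, *Acta2* and *Tagln* each reached 100 CPM.

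Proximal tubule genes also appeared in wells with a muscle profile. The list of 15 ran from 0.386 through a median of 72.96 (52.1 in YFP1, 131 in YFP2) to 69950 CPM. It passed 1000 CPM in 9 wells, or 7 with near-identical wells counted once, and the highest 4, 1 in YFP1 and 3 in YFP2, held 15164 to 69950 CPM. Among these 4 a YFP2 well with 15164 CPM of the list also held 27617 CPM of contractile genes, 3414 CPM of *Akr1b7* and 10121 genes, and it belongs to a near-identical pair. Another held 25095 CPM of the list beside 4112 CPM of contractile genes and 2321 CPM of *Akr1b7*. *Gpx3*, the plasma glutathione peroxidase of tubule cells, took 36.5% of the reads of the list, found in 35 wells at 0, 4.90 and 23865 CPM. The brush border receptor gene *Lrp2* was found in 25 wells and the glucose transporter gene *Slc5a2* in 1.

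Genes of the remaining kidney cell types stayed low in most wells and high in a few. The podocyte list had a median of 52.97 CPM (32.0 in YFP1, 82.4 in YFP2) and passed 1000 CPM in 4 wells, led by *Cdkn1c*, while the slit diaphragm gene *Nphs1* was found in 15 wells. The endothelial list had a median of 7.11 CPM and passed 1000 CPM in 5 wells, with *Cdh5* found in 5 and *Kdr* in 2. Loop and distal tubule, collecting duct and red blood cell lists had medians of 3.54, 0.213 and 0 CPM and each passed 1000 CPM in 1 well, and 20418 CPM of the red blood cell list and 2610 CPM of the collecting duct list lay in the same well, the YFP2 well of 10121 genes named above. In the macrophage and leukocyte list *C1qb*, *C1qc*, *Adgre1* and *Fcer1g* were at 0 counts in all wells. No doublet caller was run. Over 9000 genes were counted in 5 quality wells, and the 4 wells highest in proximal tubule genes had 3124 to 10121 genes. The part of another cell in the well was not tested.

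The most variable genes took most of their reads from 1 well. Variability was taken as the squared coefficient of variation of CPM, on the log10 scale, over that of genes of like mean. The 20 genes of largest excess were *Ptch1*, *Farsa*, *Ptar1*, *Chd4*, *Impg2*, *Nktr*, *Spp1*, *Chka*, *Resf1*, *Dync1li2*, EYFP, *Rps6kb1*, *Ankrd46*, *Ly6a*, *Klk1*, *Rbfox2*, *Tfcp2l1*, *Nab1*, *Tmem38b* and *Tmem51*. Their highest wells held between 57.9% and 99.5% of their summed CPM, and at least 75% for 14 of them. *Ptch1*, the hedgehog receptor gene, was found in 22 wells but had a median of 0.220 CPM and a highest level of 39881 CPM, which was 98.7% of its total. *Farsa*, a phenylalanyl-tRNA synthetase subunit gene, was found in 36 wells with a median of 3.34 CPM and 36811 CPM in the highest. A single well at this height carries no replicate. Only 2 of the 20, *Spp1* and *Dync1li2*, stayed among the 20 most variable once the highest well of each gene was left out.

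A few variable genes were high in several wells. EYFP passed 1000 CPM in 8 wells, *Resf1* in 7 and *Spp1* in 4, and *Klk1*, the tissue kallikrein gene, passed 100 CPM in 4. The Spearman correlation of EYFP over the 57 wells was 0.40 with *Mgp*, 0.38 with *Akr1b7* and 0.23 with the contractile sum, and it was 0.11 with the counts of a well (0.04 in YFP1, 0.18 in YFP2). With the proximal tubule sum it was 0.35 in YFP1 and -0.22 in YFP2. The 5 markers varied about as much as genes of like mean, with excesses between -0.31 for *Tagln* and 0.29 for *Mgp*.

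Correlation between genes over wells was weak in general. Among the 1000 most variable of 4546 genes found in at least 20% of the wells of each library, the median Spearman correlation of a pair was 0.070, and 0.213% of the 499500 pairs reached 0.5. The wells share capture runs and libraries, and all correlations here are descriptions over the 57 wells. These include the 6 wells with under 1000 CPM of contractile genes, in which *Rgs5*, *Akr1b7*, *Acta2* and *Tagln* were all low together. Correlations were not computed without them, and their part in the values below was not tested. Average linkage up to a distance of 0.5 (1 minus the correlation) left 1 group of at least 8 genes. It held 11 genes, among them *Rida*, *Slc27a2*, *Fxyd2*, *Cltrn*, *Gpx3*, *Slc34a1* and *Miox*. Of the 11, 5 are in the proximal tubule list, and the median correlation within the group was 0.63 (0.63 in YFP1 and 0.71 in YFP2). The genes named are mostly enzymes and transporters of the proximal tubule cell, and the sum of the 11 was 26.5 CPM in the median well and 57255 CPM in the highest.

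At a distance of 0.6 there were 6 groups with 62 genes in all. One of 8 genes was contractile. *Tagln*, *Myl9*, *Tpm2*, *Mustn1*, *Acta2*, *P2rx1*, *Myh11* and *Wfdc1* had a median correlation of 0.60 (0.58 in YFP1, 0.62 in YFP2, 0.59 with near-identical wells counted once). Their summed level ran from 18.8 through a median of 16136 to 56863 CPM. Of the 8, 5 are in the contractile list, and *Wfdc1*, *Mustn1* and *P2rx1* are not. *Mustn1* encodes a small nuclear protein of muscle. *P2rx1* encodes the ATP-gated channel through which nerves and autoregulation act on afferent arterioles. *Mustn1* was found in 49 wells at 0.198, 277 and 3127 CPM and *P2rx1* in 39 at 0, 133 and 2284 CPM. The score of this group had a correlation of -0.12 with the genes per well and -0.05 with the counts. It was also separate when counts and genes per well were regressed out. With near-identical wells counted once, 6 of the 8 genes stayed together in a group of 10, which *Acta2* and *Mustn1* had left. The other 4 groups, led by *Dgkd*, *Pdpn*, *Mrpl51* and *Emp1*, had median correlations of 0.47 to 0.48, and their scores followed the number of genes per well at 0.46 to 0.68. With genes and counts regressed out, the groups at 0.6 were the tubule group and the contractile group only.

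*Akr1b7* had *Mgp* as its closest gene. That highest partner, among genes found in at least 20% of the wells, stood at a correlation of 0.69 (0.68 in YFP1, 0.65 in YFP2, 0.69 with near-identical wells counted once). Next came *Col12a1*, a fibril-associated collagen gene (0.63), *Atp1b2*, a sodium pump subunit gene (0.58), *Fxyd1*, the sodium pump regulator phospholemman (0.54), and *Sncg*, gamma-synuclein (0.53). With *Acta2* it stood at 0.30 (0.36 in YFP1, 0.16 in YFP2) and with *Tagln* at 0.22 (0.18, 0.20). With whole sums it stood at 0.50 for the mural list, of which *Rgs5* takes nearly all reads and alone gave 0.49 (0.70 in YFP1, 0.24 in YFP2), at 0.43 for the matrix list (0.48, 0.32) and at 0.32 for the contractile list (0.35, 0.25), and these differences were not tested. For *Mgp* the partners after *Akr1b7* were *Col1a1* (0.66), *Rcn3*, a gene for an endoplasmic reticulum protein (0.66), *Ecm1* (0.63) and *Col12a1* (0.63), whereas *Mgp* stood at 0.19 with *Acta2* (0.32 in YFP1, 0.05 in YFP2) and at 0.16 with *Tagln* (0.26, 0.05). At a distance of 0.7, chosen after the data were seen, *Akr1b7*, *Mgp*, *Col12a1*, *Ecm1*, *Rcn3*, *Dpysl3*, *Bgn*, *Aldh7a1*, *Sncg* and *Cpe* formed 1 of 19 groups, with a median correlation of 0.45. Between these genes and the contractile group the median correlation was 0.22, and between them and the tubule group it was -0.03.

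The muscle markers travelled with each other. *Acta2* had *Mustn1* (0.69), *Tagln* (0.67), *P2rx1* (0.63), *Dstn*, an actin-severing factor (0.62), and *Myl9* (0.61) as its closest genes, and *Tagln* had *Myh11* (0.69), *Acta2* (0.67), *Myl9* (0.66), *Crip1* (0.65) and *Tpm2* (0.62). *Fstl1* correlated to a like degree with both sets, at 0.35 with *Akr1b7*, 0.35 with *Tagln*, 0.28 with *Mgp* and 0.27 with *Acta2*. At the distance of 0.7 it fell in a group of 13 genes with *Rgs5*, *Cald1* and *Ednrb*. Its closest genes were *Zfp729a* (0.55), *Rgs5* (0.53), *Relb* (0.53), *Gm45551* (0.53) and *Atp1b2* (0.52). Over whole lists the median correlation between members found in at least 20% of wells was 0.66 for the mitochondrially encoded genes, 0.48 for the 3 of loop and distal tubule, 0.40 for proximal tubule, 0.35 for contractile genes, 0.28 for the 4 of podocytes and 0.26 for the mural list, beside 0.070 for all pairs of the 1000 genes. The podocyte value was 0.002 in YFP1 and 0.40 in YFP2. It was 0.22 for immediate early genes, 0.20 for matrix genes (0.20 in YFP1, 0.13 in YFP2), 0.13 for the unfolded protein response (0.07 with counts and genes per well regressed out), 0.08 for housekeeping genes and 0.07 for the cAMP pathway (0.02 in YFP1, 0.12 in YFP2). The renin list stood at 0.06 (0.09 in YFP1, 0.06 in YFP2), near the 0.070 of all pairs of the 1000 genes. Those genes were picked for variability and the lists were not, so the values are set side by side only. Fibroblast genes stood at 0.14 and endothelial genes at 0.13. The contractile sum correlated at 0.41 with the mitochondrial percentage and at -0.29 with the genes per well. *Acta2* stood at 0.50 with the mitochondrial percentage. The part of that percentage was not tested, since the regression above took out counts and genes per well only.

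**Figure D4:**
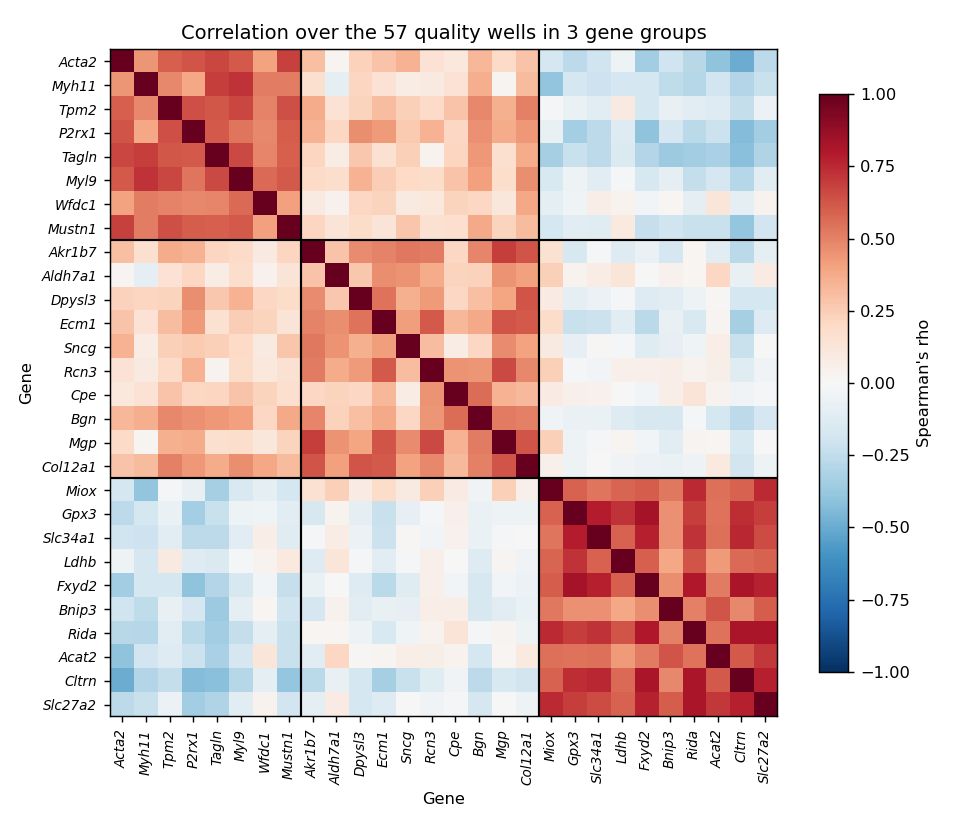
Spearman correlation over the 57 Renin-null quality wells, from -1 (blue) to 1 (red), between the genes of 3 groups separated by black lines, the contractile group (distance 0.6), the group with Akr1b7 and Mgp (distance 0.7) and 10 of the 11 genes of the tubule group (distance 0.5). Median correlations within the groups are 0.60, 0.45 and 0.63, and those between the groups are 0.22 or below.

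Because the contractile genes moved together, their promoters were searched for the CArG box, the site bound by serum response factor in muscle genes. RefSeq windows of 250 bases before the transcription start (GRCm38.p6) were at hand for 5 of the 8 genes, *Acta2*, *Myl9*, *Tpm2*, *Mustn1* and *P2rx1*. On either strand, a full CArG box lay in 1 of them, *Myl9*, and in 1.47% of all 32851 windows. With 1 departure allowed in its A and T core, boxes lay in 2 of the 5, with 2 boxes each, and in 8.59% of all windows. Windows of 9 other genes of the contractile list (*Cald1*, *Cnn1*, *Des*, *Flna*, *Lmod1*, *Mylk*, *Smtn*, *Synpo2* and *Tpm1*) held 0 such boxes, and that of *Ren1* held 1. The windows of the group that hold boxes, those of the muscle actin and of the regulatory light chain of its myosin, are shown with the boxes in capitals. The windows used for *Acta2* and *Ren1* overlap the gene spans given above, whose outer ends differ from the RefSeq starts. *Acta2* is chr19:34255374-34255623 on the minus strand, with boxes that begin 84 and 34 bases before the start. *Myl9* is chr2:156775214-156775463 on the plus strand, with boxes that begin 161 and 99 bases before it.
Acta2: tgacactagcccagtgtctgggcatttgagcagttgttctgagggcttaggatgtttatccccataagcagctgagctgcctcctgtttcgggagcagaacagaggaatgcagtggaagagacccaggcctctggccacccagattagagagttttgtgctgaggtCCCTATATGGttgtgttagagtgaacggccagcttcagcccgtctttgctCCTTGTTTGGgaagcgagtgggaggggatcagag
Myl9: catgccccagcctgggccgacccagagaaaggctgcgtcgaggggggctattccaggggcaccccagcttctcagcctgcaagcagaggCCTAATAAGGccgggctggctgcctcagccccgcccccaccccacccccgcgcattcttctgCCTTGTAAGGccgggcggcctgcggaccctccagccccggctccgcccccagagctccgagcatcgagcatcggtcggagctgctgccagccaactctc
A match of letters is a description of the window, and whether the sites are bound in these cells was not measured here.

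The libraries were compared for each gene by the mean CPM over their quality wells. Of 5374 genes of at least 10 CPM in the higher library and found in at least 20% of its wells, 1339 (24.9%) were at least 4-fold apart, 826 (15.4%) higher in YFP2 and 513 (9.55%) higher in YFP1. Within 2-fold lay 49.3%, and the log2 means, with 1 added, correlated at r = 0.58 across genes, which are not independent replicates. Genes common to the wells were close. Of the 184 genes found in at least 90% of wells 172 lay within 2-fold and 1 was past 4-fold. None of the 20 leading genes was past 4-fold, and the widest, *Mgp*, differed by 0.68 on the log2 scale. Of the contractile list 1 of 14 genes compared was past 4-fold, of the matrix list 3 of 19 and of the immediate early list 1 of 20, all higher in YFP2. Past 4-fold and higher in YFP2 were also 5 of 6 podocyte genes compared (8 listed) and 3 of 3 endothelial genes (11 listed). The share of all genes compared was 15.4%. A gene enters through its higher library, which draws genes of low level toward gaps, so nothing is concluded from these list counts. Single YFP2 wells held 55.9% of the summed podocyte CPM and 57.1% of the summed endothelial CPM. Higher in YFP1, beside 9.55% of all genes, were 2 of 2 loop and distal tubule genes compared (9 listed). So was the 1 cell cycle gene compared (12 listed). Single YFP1 wells reached 4234 CPM of the loop and distal tubule list and 7527 CPM of the cell cycle list. The list medians ran the other way, at 3.27 CPM in YFP1 and 4.30 in YFP2 for loop and distal tubule. For the cell cycle list they were 2.59 and 3.40 CPM.

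Genes that differed between the libraries were mostly held by few wells. The highest well held a median of 54.1% of the summed CPM of a gene past 4-fold and 26.7% of that of other genes. Among genes with counts in both libraries, the largest gaps toward YFP1 were *Fam160b1*, *Wdr20*, *Zfp592*, *Apex2* and *Impg2*. Toward YFP2 they were *Syde1*, *Ripor1*, *Zfp395*, *Gnpat* and *Mfap2*. A further 2 genes compared were at 0 in 1 library. *Fam160b1* averaged 169.6 CPM in YFP1 and 0.0262 in YFP2, where it was found in no well. *Syde1* averaged 19.5 CPM in YFP2 and 0.00399 in YFP1. Without the 5 wells of over 9000 genes 1333 genes were past 4-fold, and the share of them higher in YFP2 went from 61.7% to 51.2%. With 1 library on each side, mice, captures and sequencing run cannot be told apart in any of these gaps.

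**Figure D5:**
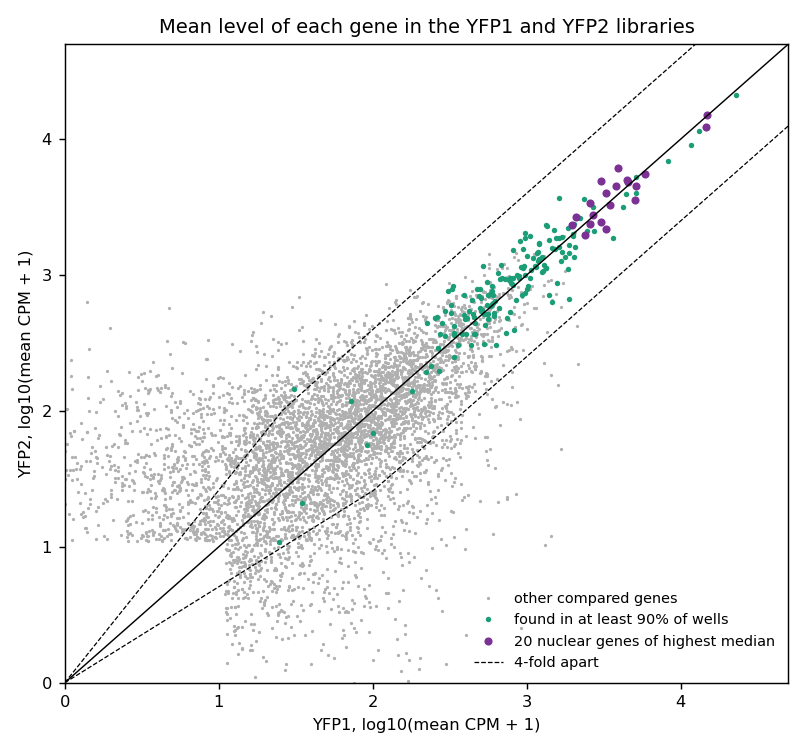
Mean level of 5374 genes over the quality wells of YFP1 (horizontal) and YFP2 (vertical), as log10(mean CPM + 1), with genes found in at least 90% of wells in green, the 20 leading genes in purple, a solid line at equality and dashed lines at 4-fold. Points near the top right lie along the line of equality, and the 1339 genes past 4-fold had a median of 81.5 CPM in the higher library, with 8 of them at 1000 CPM or more.

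Groups built in 1 library were read in the other. The tubule group of 15 genes built in YFP2 had a median correlation of 0.68 there and 0.50 in YFP1 (0.56 without the near-identical wells). A group around *Acta2* and *Tagln* built in YFP1, with *Ednrb*, *Cd200*, *Myom1*, *Mob2*, *Ccn1*, *Tpm1* and *Mustn1*, went from 0.56 to 0.30 in YFP2 (0.25 without those wells), and a group of 8 genes with *Akr1b7*, *Mgp*, *Col12a1*, *Limch1*, *Clu*, *Rcn3* and *Dpysl3* went from 0.59 to 0.35 (0.33). None of the 9 groups built in YFP2 held *Acta2* or *Akr1b7*. All pairs of the 1000 genes had medians of 0.09 in YFP2 and 0.05 in YFP1 when read this way. The other 11 groups of the 14 built fell to between -0.005 and 0.23 in the library they had not been built in.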

How the data were processed

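The deposited values are expected counts per gene for 35438 genes, 1 column per well. The authors trimmed reads with Trimmomatic 0.39, checked them with FastQC 0.11.5, estimated counts with Salmon 0.11.2 on the mouse transcriptome of GRCm38 and summed them to genes with tximport, scaled to transcript length and library size, so the expected counts need not be whole. They were rounded to whole numbers here, and CPM was taken over all gene counts of a well. Groups come from the labels. Each genotype is 1 sample, so no test across wells was run. Exact Clopper-Pearson 95% intervals cover counting error only, and PCR copies were not told apart.

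Quality wells had at least 100000 counts, 1000 genes and at most 25% mitochondrial counts. Variable genes were ranked by log10 squared coefficient of variation minus its running median over genes of like mean. Groups used average linkage on 1 minus Spearman's rho of log2(CPM + 1), with at least 8 genes. Genes named are the markers, the leading 20 of each ranking, the 5 closest partners of each marker, group members and list members. The members and gene lists were chosen with earlier results of these data known. A few genes that these rules name are not reported here. Promoter windows are from RefSeq (GRCm38.p6). Python 3.11.15, numpy 2.4.6, pandas 2.3.3, scipy 1.17.1, matplotlib 3.10.9, R 4.3.3 and scran 1.30.0 were used, and the procedures were tested on simulated data.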

Additional observations from a re-analysis of the deposited data

How the results depend on the processing

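The 20 most abundant genes were the steadiest ranking, with 16 to 19 of them kept under the 7 alternatives run. With near-identical wells counted once *Crip1*, *Cald1* and *Mgp* left them. The 184 genes found in at least 90% of wells became 890 with 1 count taken as found, 113 after thinning each well to 100000 counts and 29 over all 96 wells. With 100 CPM in place of 10 counts, the share of wells was 84.2% for *Acta2* and for *Tagln*, 82.5% for *Mgp*, 80.7% for *Fstl1* and 73.7% for *Akr1b7*. The marker medians fell over all 96 wells, to 376 CPM for *Akr1b7*, 1074 for *Acta2*, 2618 for *Tagln*, 1257 for *Mgp* and 889 for *Fstl1*. Of the 20 most variable genes 10 stayed with pooled size factors of scran, 2 without YFP1 and 2 without the highest well of each gene.

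The number of correlated groups was the least stable value. In place of 1 group there were 2 with Pearson correlation, 2 with near-identical wells counted once, 2 with counts and genes per well regressed out, 0 with 500 genes, 5 without YFP2, 9 without YFP1 and 6 at a distance limit of 0.6. Chosen after seeing the data, a limit of 0.7 gave 19, leaving out wells over 9000 genes gave 3, and the limit of 0.6 gave 7 without those wells, 6 with near-identical wells counted once and 2 after the regression. In place of 1339 of 5374 genes 4-fold apart between the libraries, there were 316 of 990 compared by median CPM, 748 of 3808 over all 96 wells, 10894 of 35438 with no filter and 2725 of 5374 at 2-fold. The causes of these shifts, other than the changed thresholds and wells, were not tested.

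Each genotype is 1 sample, mice and captures are not given per well, and near-identical wells make the libraries less independent than their labels. Genes under 10 counts in a shallow well were not called found. No paired analysis was possible because no result comes from a test between replicated groups.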

Other observations

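The 39 Renin-null wells outside the quality limits, with a median of 776222 counts and 65.3% mitochondrial counts, had lower levels of the leading genes examined. With mitochondrial counts left out, *Rgs5* had a median of 4756 CPM there and 16078 CPM in the quality wells, and it was found in 37 of the 39. *Tagln* stood at 1196 CPM against 5855 CPM and *Acta2* at 1114 CPM against 3584 CPM. *Akr1b7* was found in 25 of the 39 at a median of 435 CPM, against 1553 CPM in the quality wells. *Mgp* stood at 1346 CPM against 2456 CPM and *Actb* at 6605 CPM against 13606 CPM.

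Y-linked genes reached at least 100 counts in 25 of the 57 quality wells, 11 in YFP1 and 14 in YFP2, and at least 1 count in all 57.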
